A study of Mus musculus with 8 samples.

Results

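Erythroid cells of the yolk sac were examined in chimeric mouse embryos that contained Eomes-KO and WT host cells. Members were taken as the cells that carry the label Erythroid in the authors' combined cell type annotation, and 4070 of 28723 cells did so. Of these, 1 was an Eomes-KO cell and 4069 were WT host cells. In the deposited table this label is the union of the Erythroid1, Erythroid2 and Erythroid3 labels of the original gastrulation atlas, with no cell added and none left out. Haemoglobin genes were left out of the authors' mapping to the atlas, so the labels rest on the other genes of a cell. No gene counts were analysed here, so the identity could not be checked against Hbb-bh1, Hba-x, Gata1 and Klf1, and every value below is a number of cells, a transferred label or a measure per cell.

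The first blood of the mouse embryo forms in the yolk sac, where mesoderm that leaves the primitive streak builds blood islands next to the extra-embryonic endoderm. Its main product is the primitive erythroid cell, which carries embryonic globins such as Hbb-bh1 and Hba-x and depends on the transcription factors Gata1 and Klf1. Primitive erythroid cells enter the circulation as large nucleated cells, go on dividing and mature there together, so at one stage of development they form a cohort that moves from progenitor to more mature states. Eomes encodes a T-box transcription factor of the early posterior streak, and the comparison asks whether cells that lack it enter this lineage.

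Chimeras were made by injecting WT C57BL/6 blastocysts with male tdTomato+ ESC in which Eomes had been disrupted, using 4 independent clones, 1 for each pool of embryos. Embryos were collected around E8.5, about 4 to a tube, dissociated and sorted into tdTomato+ Eomes-KO cells and tdTomato- WT host cells, which gave 4 libraries of each. tdTomato is a red fluorescent protein that only the injected cells carry. Both groups come from the same embryos and no library held injected WT ESC, so loss of Eomes and origin from cultured, clonal ESC cannot be told apart.

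Retained cells numbered 602, 1153, 3346 and 3465 in the Eomes-KO libraries, against 2414, 3791, 5819 and 8133 in the WT host libraries. Each library is called by its number of cells below, because no pool is given for it in the table. UMIs (unique molecular identifiers, which count captured transcripts once each) totalled 19370600 to 57481950 in an Eomes-KO library and 20512404 to 66414390 in a WT host library. Over all cells the median was 8901 to 32559.5 UMIs per cell in Eomes-KO libraries and 5124 to 11002 in WT host libraries. Labels outside the epiblast lineage (ExE ectoderm and visceral, parietal and ExE endoderm) were set aside. The denominators were then 8561 cells of the Eomes-KO and 19284 of the WT host. Cell barcodes that occurred in more than 1 library covered 160 of the 28723 cells (0.557%) and 31 of the 4070 Erythroid cells (0.762%). Cells are not replicates, so groups were compared over libraries, and binomial intervals (exact Clopper-Pearson, 95%) cover counting error only.

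Erythroid cells were almost absent from the Eomes-KO side and were the most frequent cell type on the WT host side. The Eomes-KO libraries of 602, 3346 and 3465 cells held 0 Erythroid cells among 601, 3345 and 3465 epiblast-derived cells. The library of 1153 cells held 1 among 1150, a share of 0.087% (interval 0.0022% to 0.484%). For the 3 libraries with a count of 0, the upper bound of the exact interval was 0.612%, 0.110% and 0.106% in the order of their sizes, and 3 cells would be 0.499%, 0.0897% and 0.0866%. The WT host libraries held 680 of 2395 (28.4%, interval 26.6% to 30.2%), 1157 of 3758 (30.8%, 29.3% to 32.3%), 920 of 5153 (17.9%, 16.8% to 18.9%) and 1312 of 7978 epiblast-derived cells (16.4%, 15.6% to 17.3%), in the order of their sizes. The groups did not overlap, and the intervals of the WT host libraries of 2414 and 3791 cells lay above those of the other two.

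**Figure D1:**
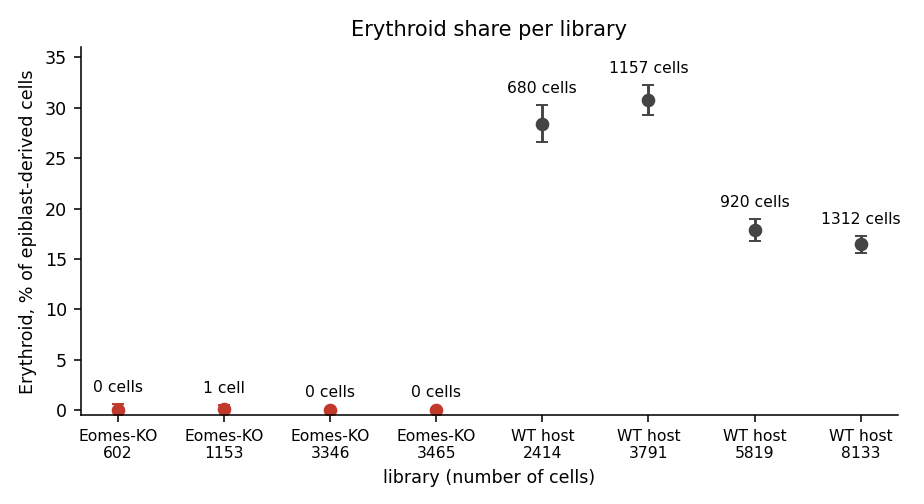
Erythroid cells as a percentage of the epiblast-derived cells of each library, with exact 95% binomial intervals and the number of Erythroid cells above each point (red, Eomes-KO; grey, WT host; libraries named by their number of cells). The 4 Eomes-KO libraries lie at or near 0 and the 4 WT host libraries between 16.4% and 30.8%.

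The share averaged 0.0217% ± 0.0435 in Eomes-KO libraries and 23.4% ± 7.27 in WT host libraries (SD, n = 4 each). The difference of -23.3 percentage points had p = 0.029 in an exact two-sided permutation test over 70 arrangements, the smallest p that 4 against 4 libraries can give. At the mean WT host share, 2001 Erythroid cells would have stood among the Eomes-KO cells, 140 of them in the smallest library and 810 in the largest. Pooled over cells, the WT host share was 1806 times the Eomes-KO share, with an exact interval of 324 to 71367 times that reflects the single Eomes-KO cell. Erythroid ranked first among the labels of every WT host library, and the second, Forebrain_Midbrain_Hindbrain, held 272, 531, 453 and 804 cells (11.4%, 14.1%, 8.79% and 10.1%). By transcripts the Erythroid share of the WT host libraries was larger still, here with all retained cells as denominator. It was 32.4%, 36.8%, 19.8% and 18.8% of the UMIs of the libraries of 2414, 3791, 5819 and 8133 cells. Erythroid made up 28.2%, 30.5%, 15.8% and 16.1% of all retained cells of the same libraries.

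Tested together with the other labels by edgeR's quasi-likelihood test, Erythroid was lower in Eomes-KO cells (log2 fold change -10.53, Benjamini-Hochberg adjusted p = 2.3e-09). The SE implied by the F statistic of that test was 0.66. With 1 cell on one side the fitted fold is no bound on the true one, and the implied SE does not measure its precision. Of the 33 labels tested, 16 were lower in Eomes-KO cells (48.5%), so a call alone does not set Erythroid apart. All 18 alternative fits of this comparison, which changed the scaling, tool, denominator, filter or libraries, also called Erythroid lower, with adjusted p of at most 2.1e-06. Restricting both groups to cells with at least 10000 UMIs moved the difference in share by more than 1.5 times, to -37.0 percentage points. The WT host shares were then 48.6%, 43.6%, 25.2% and 30.6%, the last on 26 of 85 cells, because that library was shallow.

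The finer labels are other names for the same mapped cells and are no independent support. Among the original atlas labels, Erythroid1 held 0 Eomes-KO and 1825 WT host cells (edgeR adjusted p = 1.9e-07), Erythroid2 held 1 and 1108 (adjusted p = 5.5e-07), and Erythroid3 held 0 and 1136 (adjusted p = 9.1e-06). Lower calls made up 15 of the 29 original labels tested (51.7%). In the extended atlas annotation of the same mapping, Erythroid held 1 Eomes-KO and 3892 WT host cells (adjusted p = 1.1e-09), and MEP, the megakaryocyte-erythroid progenitors that can give red cells or platelets, held 0 and 99 (adjusted p = 1.6e-05). There 44 of 69 labels were lower (63.8%). No Eomes-KO cell beyond the 1 already named was erythroid in any of the annotations.

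The labels nearest to Erythroid were also empty on the Eomes-KO side. Blood progenitors 1, the earlier of the atlas's yolk sac blood progenitors, held 0 Eomes-KO cells, against 6, 3, 19 and 33 cells in the WT host libraries of 2414, 3791, 5819 and 8133 cells. Blood progenitors 2, which leads into the erythroid labels in the atlas, held 0 Eomes-KO cells, against 82, 31, 123 and 172 WT host cells. EMP, erythro-myeloid progenitors that arise in a later wave of yolk sac blood, held 0 against 1, 0, 6 and 9 cells and missed the threshold (edgeR adjusted p = 0.078). YS endothelium, the vessel lining of the yolk sac, held 0 against 5, 3, 29 and 14 cells.

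The single Eomes-KO Erythroid cell carried the label Erythroid2 in the original atlas and Erythroid in the extended atlas, and was mapped to E8.25. It had 16597 UMIs and 3338 genes, against medians of 10220.5 UMIs and 2608.5 genes over WT host Erythroid2 cells, of which 91.2% and 87.8% lay at or below it. The median cell of its own library had 19296 UMIs and 4257 genes, so it was deep for an Erythroid2 cell and below the middle of its library. Its mitochondrial percentage was 0.8%, against a median of 1.9% in WT host Erythroid2 cells, of which 1.71% lay at or below it. Its own library had a median of 1.49%. Ribosomal UMIs made up 27.94%, against 27.305%. Its doublet score was 0.06, against a median of 0.09 in those cells and 0.24 in its own library. The label scores, which give the part of the 15 nearest atlas cells that carry the label, were 0.8 for the original label and 1 for the extended one, against medians of 0.733 and 1 in WT host Erythroid2 cells. No other library held its barcode, and no other cell had the same nearest atlas cell. Whether it is a mutant erythroid cell or a host cell that passed the sort was not tested.

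Within the WT host, Erythroid cells spanned the whole of the atlas's erythroid series. Erythroid1, the least mature label, held 1825 of 4069 cells (44.9%), Erythroid2 held 1108 (27.2%), and Erythroid3, the most mature, held 1136 (27.9%). Erythroid1 made up 45.4%, 23.3%, 60.5% and 52.5% of the Erythroid cells of the libraries of 2414, 3791, 5819 and 8133 cells. Erythroid2 varied least, with 36.3%, 28.3%, 21.6% and 25.5%. Erythroid3 made up 18.2%, 48.3%, 17.8% and 22.0%. The library of 3791 cells therefore stood apart, with the lowest share of Erythroid1 and with 559 Erythroid3 cells, a share whose interval of 45.4% to 51.2% lay above the other three values. Its ratio of Erythroid3 to Erythroid1 cells was 2.07, against 0.401, 0.294 and 0.419 in the libraries of 2414, 5819 and 8133 cells.

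The mapped stage is the age of the nearest atlas cells and gave a similar order, although it comes from the same mapping as the labels and is not independent of them. Cells mapped to E7.75 numbered 525 (12.9%), to E8.0 586 (14.4%), to E8.25 1722 (42.3%) and to E8.5 1236 (30.4%). The embryos' labels give E8.5, and the study's results give E8.25 to E8.5 for their collection. Cells mapped to E8.25 or E8.5 lay within that span, and those mapped to E7.75 or E8.0 resembled younger atlas cells. The atlas cells used for mapping ended at E8.5, so no later stage could be assigned. Of Erythroid1 cells, 28.7% were mapped to E7.75, 31.0% to E8.0, 38.7% to E8.25 and 1.70% to E8.5. Erythroid2 was centred on E8.25, with 954 of its 1108 cells there (86.1%) and 131 at E8.5 (11.8%). Erythroid3 lay at E8.5, with 1074 of its 1136 cells (94.5%), and the other 62 were at E8.25. No Erythroid3 cell was mapped to E7.75 or E8.0.

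By library, E8.5 took 18.7%, 49.1%, 20.3% and 27.0% of Erythroid cells in the libraries of 2414, 3791, 5819 and 8133 cells, against 20.2%, 34.0%, 22.8% and 30.8% of the other epiblast-derived cells. E7.75 took 15.1%, 6.05%, 23.0% and 10.7% of Erythroid cells, against 8.10%, 2.54%, 6.95% and 6.48% of the others. The library of 3791 cells thus had the highest share at E8.5 and the lowest at E7.75 in both sets of cells, and it was the only one whose Erythroid cells exceeded the other cells at E8.5. Of the 22 combined labels with at least 10 cells in all 4 WT host libraries, Erythroid included, 9 had their highest E8.5 share in that library and 1 its lowest. Several others, among them Allantois, Gut and Blood progenitors 2, had their highest share in the library of 8133 cells. Caudal epiblast and Rostral neurectoderm had no cell at E8.5 in any library and could not rank. The library of 3791 cells held 2.68 Blood progenitors 2 for each 100 Erythroid cells, against 12.1, 13.4 and 13.1 in the libraries of 2414, 5819 and 8133 cells. Whether the age of its embryos has a part in this was not tested.

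**Figure D2:**
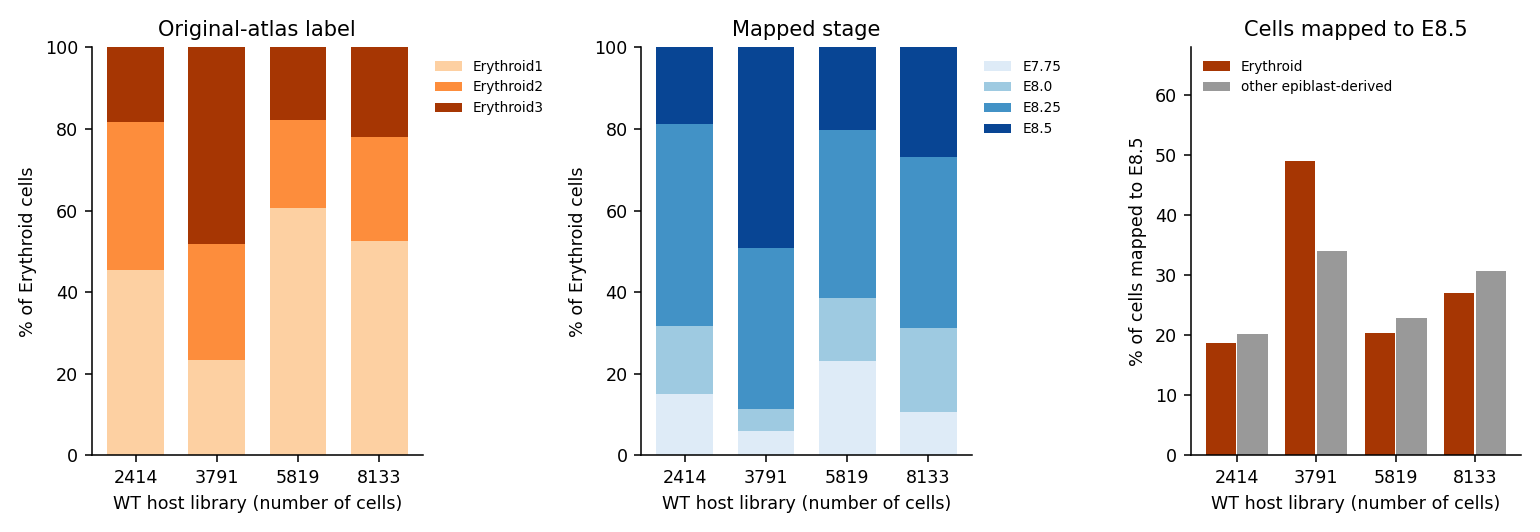
Left and middle, percentage of the WT host Erythroid cells of each library by original atlas label and by mapped stage; right, percentage of cells mapped to E8.5 among Erythroid and among other epiblast-derived cells. The library of 3791 cells has the most Erythroid3 (48.3%) and the most Erythroid cells at E8.5 (49.1%).

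The extended atlas labels placed 3891 of the 4069 WT host Erythroid cells in their own Erythroid label (95.6%), 109 in Blood_progenitors (2.68%) and 69 in MEP (1.70%). The Erythroid share was 96.0%, 97.5%, 95.3% and 94.0% over the libraries of 2414, 3791, 5819 and 8133 cells, a narrow range beside that of the original labels. All 109 Blood_progenitors cells and 61 of the 69 MEP cells were Erythroid1, the other 8 MEP cells were Erythroid2, and all 1136 Erythroid3 cells were Erythroid in both atlases. Seen from the extended labels, the 407 Blood_progenitors cells were shared between 109 Erythroid, 297 Blood progenitors 2 and 1 Blood progenitors 1 cell, and the 99 MEP cells between 69 Erythroid and 30 Blood progenitors 2 cells. The 38 megakaryocyte progenitors of the extended atlas were all Blood progenitors 2, and 1 Blood progenitors 2 cell was Erythroid in the extended atlas.

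The disputed Erythroid1 cells had lower scores for their labels. Over the 109 Erythroid1 cells that were Blood_progenitors in the extended atlas, the median score was 0.667 for the original label and 0.667 for the extended one. Over the 61 that were MEP the medians were 0.8 and 0.6, and over the 1655 that were Erythroid in both they were 0.933 and 1. None of the 61 MEP cells was mapped to E7.75 and 55.7% were mapped to E8.25, against 30.3% and 37.8% of the 1655. These are pooled descriptions of cells from libraries of unequal depth and carry no test.

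**Figure D3:**
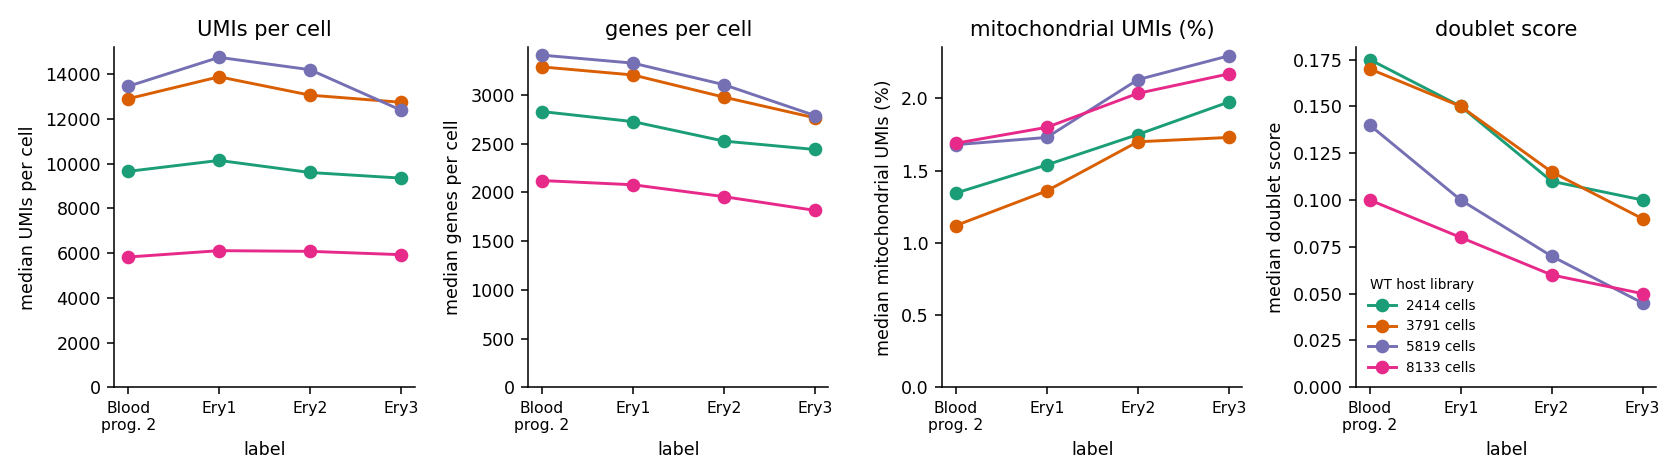
Median UMIs, genes, mitochondrial percentage and doublet score per cell for Blood progenitors 2 and Erythroid1 to Erythroid3 (Ery1 to Ery3), with 1 line for each WT host library. Genes and doublet score are lower, and the mitochondrial percentage higher, in Erythroid3 than in Erythroid1 in all 4 libraries.

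Along the series the cells became poorer in genes. Erythroid3 cells had a median of 2440, 2765, 2788.5 and 1815 genes in the libraries of 2414, 3791, 5819 and 8133 cells, against 2726, 3204.5, 3326 and 2078 in Erythroid1 cells. Each library had fewer genes in Erythroid3 than in Erythroid1, although values overlapped between libraries, which also differed in depth. The mean difference was -381.5 ± 130 genes (SD, n = 4 libraries). UMIs differed by -1118 ± 919 per cell, lower in 4 of 4 libraries. That difference was -703 without the library of 5819 cells, and -713 among cells of 10000 to 20000 UMIs, where 1 of 3 libraries was higher in Erythroid3. Erythroid2 lay between Erythroid1 and Erythroid3 for genes in every library, with 2526, 2977, 3105 and 1956.

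The mitochondrial percentage ran the other way. It was 1.975%, 1.73%, 2.295% and 2.17% in Erythroid3 cells of the 4 libraries in the same order, against 1.54%, 1.36%, 1.73% and 1.8% in Erythroid1 cells, a difference of 0.435 ± 0.0919 percentage points. The doublet score, which is high in cells that look like mixtures of others, was 0.1, 0.09, 0.045 and 0.05 in Erythroid3, against 0.15, 0.15, 0.1 and 0.08 in Erythroid1. The stage score, the part of the nearest atlas cells of the assigned stage, differed by 0.4 ± 0.0544, with medians of 0.867 to 1 in Erythroid3 and 0.533 in Erythroid1 of each library. The ribosomal percentage differed by -0.361 ± 0.753 points and was lower in Erythroid3 in 3 of 4 libraries. It was -0.73 without the library of 2414 cells and -0.172 without the library of 8133 cells.

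An exact two-sided sign-flip permutation test over 4 libraries cannot give a p under 0.125. The 5 measures that moved one way in every library (UMIs, genes, mitochondrial percentage, doublet score and stage score) all had that exact p = 0.125, or 0.2 after Benjamini-Hochberg adjustment over 8 measures, so none passed a threshold of 0.05. Fewer UMIs lower the number of genes seen in a cell. Within bins of 1000 UMIs holding at least 20 cells of both labels (a comparison added once the data had been seen), Erythroid3 cells had -239 ± 41.7 genes relative to Erythroid1 over 3 libraries, and the difference was negative in 11 of 11 bins. The libraries of 3791 and 8133 cells gave 6 and 4 of these bins. The library of 5819 cells gave 1, with 21 cells of each label, yet counted equally in the mean. In the same 11 bins the mitochondrial percentage was 0.416 points higher and the doublet score differed by -0.0314, each with 1 sign throughout. The authors' minimum of 1500 genes may touch the mature end in the shallowest library, where 42 of 289 Erythroid3 cells (14.5%) had fewer than 1600 genes. Its part in the differences was not tested.

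Erythroid cells also differed from the cells around them. They had the higher median of UMIs in every WT host library, with 9740, 13140, 14173 and 6070.5 in the libraries of 2414, 3791, 5819 and 8133 cells, against 7963, 9918, 10362 and 4930 in the other epiblast-derived cells. Among labels with at least 10 cells, Erythroid had the highest median of UMIs in 3 libraries and the second, after Caudal mesoderm, in the library of 2414 cells. Genes per cell did not follow, with medians of 2594, 2931, 3168 and 1988, against 2672, 3052, 3133 and 2020, and 18, 19, 10 and 19 labels stood above Erythroid. The mean within-library differences were 2488 ± 1240 UMIs and -49 ± 66.8 genes (SD, n = 4). The gene difference was -25 without the library of 3791 cells and -77 without the library of 5819 cells. Among cells of 10000 to 20000 UMIs, a range that narrows the UMIs themselves, the UMI difference was 975.5 ± 1192, with 1 library lower in Erythroid.

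Compared at similar depth, Erythroid cells had fewer genes in every WT host library. Within bins of 1000 UMIs, also added at that point, Erythroid cells had fewer genes than the other epiblast-derived cells in 40 of 40 bins, by an average of -443 ± 130 genes (SD, n = 4 libraries). The 4 library values were -389, -603, -483 and -299. The bins spanned 4000 to 14000, 6000 to 17000, 7000 to 20000 and 4000 to 10000 UMIs in the same order. The 4 values were therefore not taken at one depth. Among cells of 10000 to 20000 UMIs the difference was -343.5 ± 82.8 genes, lower in 4 of 4 libraries.

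**Figure D4:**
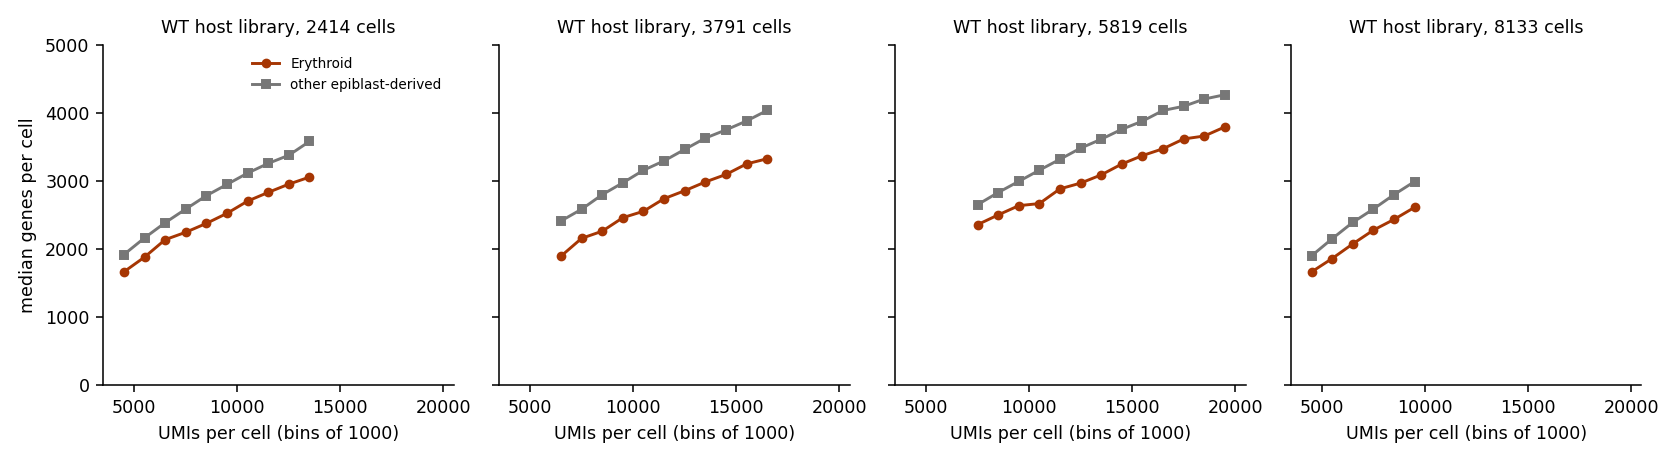
Median genes per cell in bins of 1000 UMIs for Erythroid and other epiblast-derived cells of the 4 WT host libraries, for bins with at least 20 cells of both. Erythroid cells lie below the other cells in all 40 bins.

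The mitochondrial percentage was slightly higher in Erythroid cells, with medians of 1.7%, 1.63%, 1.95% and 1.94%, against 1.58%, 1.3%, 1.91% and 1.73% in the other epiblast-derived cells, a mean difference of 0.175 ± 0.124 points. Within bins of 1000 UMIs it was 0.293 ± 0.0887 points, positive in 38 of 40 bins. Ribosomal UMIs took 27.225%, 27.77%, 26.76% and 26.24%, against 25.58%, 26.61%, 24.89% and 24.7%. Among labels with at least 10 cells, Erythroid had the highest median ribosomal percentage in the library of 2414 cells. In the other three it stood second, after Blood progenitors 2 or Blood progenitors 1. The difference of 1.55 ± 0.296 points was larger than its spread between libraries. The differences between Erythroid and other epiblast-derived cells in UMIs, mitochondrial and ribosomal percentage, doublet score and both label scores each had p = 0.125 in the exact sign-flip permutation test (adjusted p = 0.167 over 8 measures). For genes that exact p was 0.375 (adjusted p = 0.375), and for the stage score it was 0.25 (adjusted p = 0.286).

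Doublet scores were the lowest of all labels with at least 10 cells in each of the 4 WT host libraries. Their medians in Erythroid cells were 0.12, 0.1, 0.08 and 0.06, against 0.2, 0.21, 0.22 and 0.19 in the other epiblast-derived cells, and the difference was negative in 40 of 40 bins of 1000 UMIs. A score of 0.25 or more was found in 13.8%, 8.38%, 6.96% and 5.72% of Erythroid cells, 330 of 4069 in all, against 35.0%, 39.5%, 42.7% and 35.8% of the others. The mean share at or above 0.25 was 13.6% ± 5.84 in Erythroid1, 7.15% ± 3.19 in Erythroid2 and 3.68% ± 2.45 in Erythroid3 (SD, n = 4 libraries). With cells under 0.25 alone, Erythroid made up 34.5%, 40.2%, 26.1% and 22.4% of the WT host libraries, and 1 of 5159 Eomes-KO cells.

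The certainty of the labels depended on the atlas. The original label score was lower in Erythroid than in other epiblast-derived cells, with medians of 0.8, 0.867, 0.933 and 0.867 against 1, 1, 1 and 0.933, while the extended label score was higher, with a median of 1 in each library against 0.733, 0.733, 0.8 and 0.733. The mean within-library difference in original label score was -0.117, and -0.0407 with means in place of medians. Among cells of 10000 to 20000 UMIs it was -0.05 ± 0.1, with 1 library higher in Erythroid. The original atlas divides the lineage into 3 labels and the extended atlas holds 1 Erythroid label, so the scores do not measure the same choice. A full score of 1 for the original label was reached by 39.3% ± 5.27 of Erythroid1, 1.97% ± 0.562 of Erythroid2 and 45.9% ± 10.8 of Erythroid3 cells (mean and SD over 4 libraries), so the middle label was the least certain. For the extended label a full score was reached by 55.6% ± 5.83 of Erythroid1, 86.6% ± 5.06 of Erythroid2 and 99.0% ± 0.897 of Erythroid3 cells. Original scores under 0.5 were rare, in 17 Erythroid cells.

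Against Blood progenitors 2, the closest other label, Erythroid cells differed in the same directions as Erythroid3 from Erythroid1 in genes, mitochondrial percentage and doublet score. Their medians were -241 ± 91.2 genes, 0.346 ± 0.118 mitochondrial percentage points and -0.0563 ± 0.0125 in doublet score relative to Blood progenitors 2, each with 1 sign in 4 of 4 libraries (exact sign-flip permutation p = 0.125, adjusted p = 0.2). UMIs were close, with a difference of 315 ± 272 that was 184.5 without the library of 5819 cells and turned to -233 over the 3 libraries with enough cells of 10000 to 20000 UMIs. The ribosomal percentage was higher in Erythroid in 2 libraries and lower in 2.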

How the data were processed

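Chimera scRNA-seq libraries (10x 3′ v3) had been mapped by the authors to mm10 with the tdTomato gene added and counted with Cell Ranger 6.0.1. Each row of the table is a cell, with the authors' deposited UMI and gene counts, not normalized, the mitochondrial and ribosomal percent of UMIs, a doublet score (cells above 0.5 removed by the authors), and label and stage scores, deposited as the fraction of the 15 nearest atlas cells. Filters by the authors left at least 1500 genes and 3163 UMIs and at most 4.99% mitochondrial UMIs per cell. The table holds fewer cells of each genotype than the study's methods state, and the difference was not analysed here.

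Libraries were assigned to a genotype by the tdTomato status of their cells. Cells were summed per library and label (at least 10 cells), with epiblast-derived cells as library size, and compared by the quasi-likelihood test of edgeR 4.0.16 (R 4.3.3) with genotype as the only term and Benjamini-Hochberg adjustment at 0.05. Shares and differences of medians were tested by exact permutation in Python 3.11.15 with scipy 1.17.1. The edgeR test was tried on simulated counts with known folds, all smaller than the one fitted for Erythroid. The permutation tests and the adjustment were checked on small fixed inputs with known answers. The study's model has the embryo pool as a term, which could not be fitted because library names carry no pool. All tests took libraries, not cells, as their units. The study describes 4 pools, each sorted into an Eomes-KO and a WT host library. The comparisons of groups treated all 8 libraries as independent, which ignores this pairing.

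Named labels were those with at least 10 Erythroid cells, those of any erythroid Eomes-KO cell, every mapped stage, and Blood progenitors 1 and 2, EMP and YS endothelium. Further labels named for their rank or overlap were chosen after their values were seen. The members, labels and tests were chosen with earlier results of these data known. Alternatives tried were scaling by TMM, DESeq2 1.42.0 with its ratio or poscounts size factors, limma 3.58.1 (log2 share, 0.5 cells added), all cells as denominator, no filter on rare labels or at least 50 cells, label scores of at least 0.5, at least 10000 UMIs, doublet scores under 0.25, means for medians, and each library left out. The number of cells sets the precision.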

Additional observations from a re-analysis of the deposited data

Results flagged for a closer look

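Of 44 sets of 4 WT host values examined, 5 had a library far from the other three relative to their range. Chance alone marks about 1 in 20 such sets of continuous values. That rate does not hold for medians of label and stage scores, which move in steps. The share of Erythroid3 among Erythroid cells was 48.3% in the library of 3791 cells, against 18.2%, 17.8% and 22.0% in those of 2414, 5819 and 8133 cells. In the same library, Blood progenitors 2 numbered 2.68 per 100 Erythroid cells. The other three were medians of scores that move in steps of 1 of 15 neighbours, and each differed by 1 step. They were the original label score of Erythroid1 in the library of 3791 cells (0.867), and, in the library of 8133 cells, the extended label score of Erythroid1 (0.933) and the stage score of Erythroid2 (0.6).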

How the results depend on the processing

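Of 289 values recomputed under the alternatives, 279 did not reverse and kept their side of the threshold, or moved by less than the spread between libraries. For the within-library differences of medians no p under 0.05 could be reached. Their side of the threshold was therefore fixed in advance, and only their direction could change. With 1 library left out, the difference in Erythroid share ranged from -25.7 to -20.9 percentage points with an exact permutation p of 0.057, the smallest that 3 against 4 libraries can give, so 8 such values fell short of 0.05 by construction. The signs of 2 uncalled differences turned. The ribosomal percentage of Erythroid relative to Blood progenitors 2 was 0.131 points higher, and ranged from -0.0983 (without the WT host library of 2414 cells) to 0.392 with 1 library left out. UMIs relative to Blood progenitors 2 were 315 higher, and -233 at 10000 to 20000 UMIs, where the library of 8133 cells had too few cells. The fitted log2 fold change of Erythroid was -10.73 with TMM, -11.43 and -9.92 with DESeq2 (ratio and poscounts), -9.17 with limma and -12.80 to -9.92 with a library left out. These scalings moved the median of all labels by -0.14 (TMM), -0.90 (ratio) and 0.61 (poscounts). No paired analysis was possible because the library names carry no pool label, so the replicate block was not run. The number of cells limits the Eomes-KO share most in the library of 602 cells, where 3 cells are 0.499%.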
